A study of Mus musculus with 1073 samples.

Results

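The cells described here are the 91 of 140 E7.75 *Flk1*-GFP+ yolk sac cells that held transcripts of 4 or more out of 6 genes (*Tal1*, *Lmo2*, *Gata2*, *Fli1*, *Kit* and *Hhex*), and they are set against the other 49 cells of the same stage and gate. The series holds 926 filtered cells. They will be called haemato-endothelial cells, after the 6 genes they were selected on. A gene counted as found at 1 read count or more. The 6 genes chose the members, so their own levels are a description, and so is every other difference between the groups, because all genes come from the cells that were divided. No test was run: the labels name no embryo, cells of a pool are not replicates, and the groups were cut from the values themselves.

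The study profiled single cells of the yolk sac from E7.25 to E10.5 to follow how mesoderm gives rise to blood, endothelium and mesenchyme. All cells compared here carried *Flk1*-GFP/+ (GFP at 1 allele of *Flk1*, also named *Kdr*), came from untreated yolk sacs at E7.75, were freed with trypsin and were sorted as GFP+. Each was captured at its own site of a Fluidigm C1 chip and sequenced from a full-length cDNA library. The labels name them yolk sac mesoderm and place them on 2 sequencing lanes, with 53 cells on lane 7 and 87 on lane 8, and do not say whether the lanes hold separate litters.

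The first blood of the mouse arises in the extraembryonic mesoderm of the yolk sac, where *Flk1*-expressing cells give rise to endothelium and to primitive erythroid cells. *Tal1* and *Lmo2* encode partners in a transcription factor complex that is needed for blood formation, GATA2 and FLI1 act with them in progenitors, HHEX is a homeobox factor of early blood and endothelium, and KIT is the receptor for stem cell factor. Primitive erythroid cells then switch on *Gata1*, *Klf1* and the embryonic globins, whereas endothelial cells keep *Kdr* and *Tek* and add junction proteins.

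The class held 65.0% of the cells (95% exact interval 56.5 to 72.9%, for counting error only), with 35 of 53 cells on lane 7 (66.0%) and 56 of 87 on lane 8 (64.4%). All 6 genes were found in 57 cells, 5 in 14 cells and 4 in 20 cells. Just outside, 25 cells held 3 genes, 15 held 2, 7 held 1 and 2 held none. At the edge of the class the difference varied by gene. *Fli1* averaged 13.2 CPM (read counts scaled to a common library size by the authors) in cells with 3 of the genes and 44.7 CPM in cells with 4. *Gata2* averaged 4.52 and 23.6 CPM, *Lmo2* 2.32 and 15.3 CPM, *Hhex* 0.551 and 2.15 CPM, and *Tal1* 0.112 and 7.90 CPM. *Kit* went the other way, at 59.7 CPM in cells with 3 genes and 40.1 CPM in cells with 4. When a level of 10 CPM was asked of each gene, no other cell reached more than 2 of the 6 genes, while 26 class cells reached all 6 and 28 reached 5. However, 10 class cells reached 2, 10 reached 1 and 4 reached none.

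Depth was similar in both groups. Total counts had a median of 1972765 in the class (533103 to 4457761) and 2143729 in the other cells (537331 to 4523772), and the median number of genes found was 8734 and 8696. The scaled CPM summed to a median of 914177 per class cell and 1036670 per other cell. The median share of mitochondrial counts was 2.67% and 2.50%. Transcripts of both sexes (5 or more counts of *Xist* and of the Y-linked genes) were found in 10 class cells and 7 other cells, all on lane 8. In total 48 index pairs were used on both lanes, for cells kept apart by lane.

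Ratios were taken as log2 of mean CPM + 1 in the class over mean CPM + 1 in the other cells, within each lane. Genes were taken at a mean of 10 CPM over all 140 cells and 1 count or more in 14 of them, without the 6 rule genes. Of the 8403 genes taken, 213 genes (2.53%) were at least 2-fold higher in the class in both lanes. At least 2-fold lower in both lanes were 183 genes (2.18%). With CPM of each cell's own total in place of the authors' scaling, 2.87% of the genes taken were higher and 1.39% lower, so the higher genes made up 67.3% of the called genes against 53.8%. The median ratio over all genes taken was −0.06. Among the genes taken, the higher genes differed by more: 46 were 8-fold higher in both lanes, and 1 gene was 8-fold lower. The minimum mean covered all 140 cells, 91 of them in the class. A gene silent in the other cells therefore met it at a lower level than a gene silent in the class. The 2 directions are thus not on equal terms. The median over the higher genes of their mean level was 28.7 CPM in the class and 5.49 CPM in the other cells, and over the lower genes 12.7 and 41.8 CPM. When the highest cell of each group and lane was left out for each gene, 201 of the higher genes (94.4%) kept their call and 55.7% of the lower genes did.

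**Figure D1:**
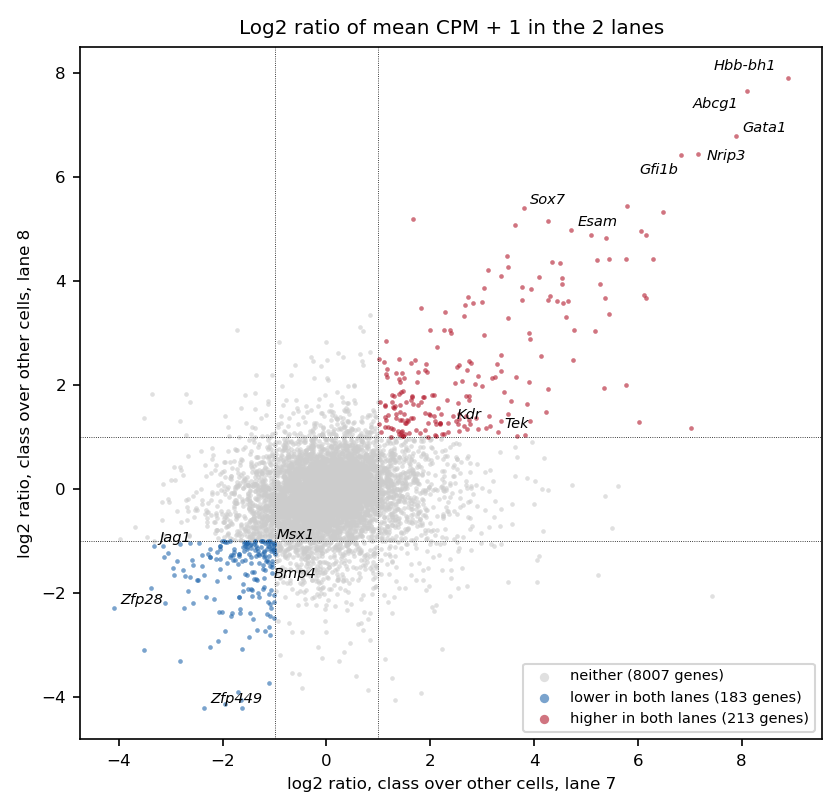
Log2 ratio of mean CPM + 1, haemato-endothelial over other cells, on lane 7 (x axis) and lane 8 (y axis), each point 1 of 8403 genes; dotted lines mark a 2-fold difference. The 213 genes higher in both lanes reach further from the centre than the 183 lower ones, with *Hbb-bh1* at 8.90 and 7.90.

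Erythroid genes were among those with the largest ratios. *Hbb-bh1*, the embryonic βh1 globin (chromosome 7 of GRCm38, 103841637 to 103843164), ranged from 0 to 13417 CPM in the class with a median of 6.85, and from 0 to 13.4 CPM in the other cells with a median of 0.724. Its mean was 766 CPM against 1.22 CPM, and the log2 ratio was 8.90 on lane 7 and 7.90 on lane 8. It reached 10 CPM in 44 class cells (48.4%) and in 1 other cell (2.04%). The groups overlapped at the low end only, since the class cells under 10 CPM lay in the range of the other cells. *Gata1*, the factor that drives erythroid and megakaryocytic genes (chromosome X, 7959260 to 7978071), ranged from 0 to 2035 CPM in the class with a median of 46.9, and its highest value in the other cells was 1.91 CPM. It reached 10 CPM in 49 class cells (53.8%) and in none of the 49 others, a count of 0 that allows a share of up to 6.12% (3 of the 49 cells).

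*Gfi1b*, a transcriptional repressor needed for red cells and platelets (chromosome 2, 28609450 to 28621982), had a median of 23.3 CPM and a highest value of 594 CPM in the class, against at most 0.980 CPM in the other cells. Its log2 ratio was 6.84 and 6.42. *Klf1*, the erythroid Krüppel-like factor (chromosome 8, 84901928 to 84905291), was lower in level, with a median of 0.364 CPM and a highest value of 197 CPM in the class. The other cells held 3 counts of *Klf1* in all, and the log2 ratio of the means over both lanes, without the added 1, was 8.71 (7.16 to 10.99, from the exact Poisson interval of those counts). *Alas2*, which starts haem synthesis in red cells, had a mean of 41.3 CPM in the class and 0.437 CPM in the others, and its ratio was larger on lane 7 (6.11) than on lane 8 (3.74). Of the 9 erythroid regulators taken, 6 were higher in both lanes (*Gata1*, *Klf1*, *Nfe2*, *Epor*, *Gfi1b* and *Cbfa2t3*) and none was lower. Of all genes taken 2.53% were higher in both lanes, the share to set beside the counts of higher list members here and below. *Ldb1* (−0.65 and 0.29), *Zbtb7a* (0.17 and −2.26) and *Bcl2l1* (0.55 and 0.45) passed in neither direction.

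Of the 9 haem synthesis enzymes, 3 were higher in both lanes: *Alas2*, *Cpox* (1.65 and 1.79) and *Fech* (1.51 and 1.05), the enzyme that inserts the iron. *Urod* was at 0.71 and −0.02, and the median over the 9 was 0.96. None of 6 genes taken from a fixed list for iron uptake and the red cell membrane passed, although *Slc25a37*, the mitochondrial iron carrier, was at 1.01 and 0.83. The median over these 6 was 0.96, and 4 were above 0 in both lanes. Other red cell genes lie outside these 6, among them *Gypc*, which was higher in both lanes and is described below. Of 7 globin genes only *Hbb-bh1* reached the minimum level.

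**Figure D2:**
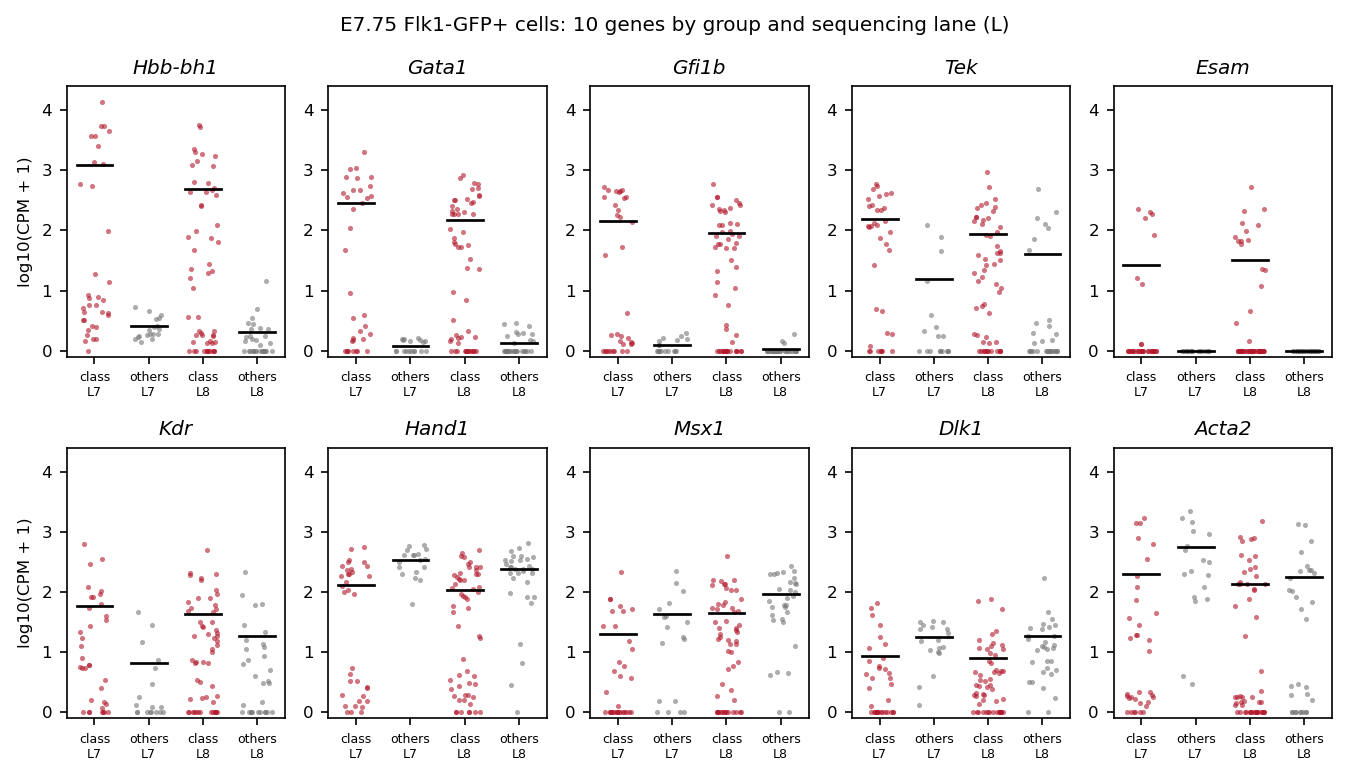
Level of 10 genes as log10(CPM + 1) in every haemato-endothelial cell (class, red) and other cell (grey) on lanes 7 and 8 (L7, L8); black bars mark the mean CPM of each group. *Gata1* and *Gfi1b* are split within the class, with 49 and 48 of 91 cells at 10 CPM or more, and *Esam* is at 0 in all 49 other cells.

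The same split ran through the other genes with the largest ratios. *Abcg1*, a cholesterol exporter (chromosome 17, 31057675 to 31117988), ranged up to 2678 CPM in the class with a median of 34.1, and up to 9.54 CPM in the other cells (log2 ratio 8.11 and 7.66). *Nrip3* (chromosome 7, 109758055 to 109782025) followed at 7.16 and 6.45. *Ikzf1*, the zinc finger factor Ikaros, had a median of 7.63 CPM in the class and a highest value of 3.82 CPM in the other cells, with a ratio of 5.79 and 5.44. *Fermt3*, the kindlin of blood cells that activates integrins, was at 6.48 and 5.33, and the tetraspanin gene *Tspan32* at 6.07 and 4.96. *Slc38a5*, an amino acid transporter, was at 6.16 and 4.88. *Adgrg1*, an adhesion receptor of blood progenitors, was at 5.38 and 4.83, *Reln*, a secreted glycoprotein, at 6.30 and 4.43, and the glutamate transporter gene *Slc1a3* at 5.44 and 4.42. *Scube2* had 3 counts in all other cells together, and its log2 ratio of means, without the added 1, was 10.06 (8.52 to 12.34). Each of these kept its call without the highest cells, and each was highest in primitive erythroid cells or megakaryocytes among the sorted E8.5 populations.

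Promoter sequences are shown for *Gfi1b* and *Tspan32*, which among the genes described above with the largest ratios and a RefSeq promoter window were the 2 whose window (GRCm38.p6, 250 bases before to 50 bases after the start) held a GATA motif. *Hbb-bh1*, *Abcg1*, *Nrip3* and *Esam* had no window among those used here. The motifs searched were AGATAA and TGATAA on either strand, which do not overlap each other. The 250 bases before the start are printed 5′ to 3′ on the strand of the gene with the motif in capitals; the *Gfi1b* stretch is chr2:28621983-28622232 on the minus strand and the *Tspan32* stretch is chr7:143004796-143005045 on the plus strand.
Gfi1b: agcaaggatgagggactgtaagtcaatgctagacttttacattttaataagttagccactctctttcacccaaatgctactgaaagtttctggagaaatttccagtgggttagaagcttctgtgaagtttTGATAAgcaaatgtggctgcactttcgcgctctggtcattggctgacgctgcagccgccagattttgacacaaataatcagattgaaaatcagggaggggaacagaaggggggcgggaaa
Tspan32: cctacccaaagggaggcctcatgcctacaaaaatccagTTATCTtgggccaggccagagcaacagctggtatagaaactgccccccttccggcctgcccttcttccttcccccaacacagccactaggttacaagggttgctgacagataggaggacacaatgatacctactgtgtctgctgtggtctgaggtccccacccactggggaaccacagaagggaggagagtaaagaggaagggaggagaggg
The motif begins 120 bases before the start of *Gfi1b* and 212 bases before that of *Tspan32*, where it reads as the reverse complement of AGATAA. Of the 213 higher genes 160 had a window, and 38 of these (23.8%) held at least 1 of both motifs. The share was 9.70% of the lower genes with a window and 11.5% of 5990 genes taken. CCACACCC, a sequence of the kind that KLF1 binds, was in 4.38% of the windows of higher genes, 7.46% of lower genes and 4.04% of all genes taken. A match of letters is a description and shows no binding.

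All 7 haematopoietic genes of the study that were not in the rule were higher in both lanes, with a median ratio of 4.35. The study chose this list on these samples, so the count is not independent evidence of its direction. *Runx1*, which is needed for definitive blood, had a median of 67.7 CPM in the class and 0.542 CPM in the other cells (3.36 and 4.10), and was the most widely shared of them, at 10 CPM or more in 62 class cells (68.1%) and 9 other cells (18.4%). *Myb*, a factor of blood progenitors, was at 3.47 and 4.49, and *Itga2b*, the CD41 antigen, at 4.78 and 3.05. Among 10 haematopoietic transcription factors taken, *Runx1*, *Myb*, *Ikzf1* and *Gfi1b* were higher and none was lower. *Meis1* was at 0.42 and −1.0 and *Myc* at 0.52 and 0.07.

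Endothelial genes were higher in part. *Tek*, the angiopoietin receptor TIE2 (chromosome 4, 94739289 to 94874976), ranged from 0 to 936 CPM in the class with a median of 32.5, and from 0 to 496 CPM in the other cells with a median of 0. It reached 10 CPM in 60.4% of class cells and 22.4% of other cells, and the groups overlapped up to 496 CPM, above which lay 4 class cells and no others. *Kdr* itself, the gene whose locus carries the GFP used for the sort, ranged up to 614 CPM in the class (median 9.07) and up to 210 CPM in the others (median 0.772), with a ratio of 3.15 on lane 7 and 1.22 on lane 8. *Ramp2*, a subunit of the adrenomedullin receptor, was at 2.75 and 2.47. *Pecam1* (0.03 and 1.12) and *Aplnr* (−0.43 and −0.29) passed in neither direction, and *Cdh5*, the cadherin of endothelial junctions, was under the minimum level with a mean of 12.8 CPM in the class and 0.339 CPM in the other cells. The median over the 5 genes taken was 1.79, and it was 2.75 on lane 7 and 1.12 on lane 8.

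Outside the study's list, *Esam*, an adhesion molecule of endothelial junctions (chromosome 9, 37528078 to 37538319), stood apart. It ranged from 0 to 532 CPM in the class, reached 10 CPM in 21 cells (23.1%) and had no count in any other cell. With a floor of 3 counts over the other cells, its mean was at least 738-fold higher. *Sox7*, a SOX factor of early endothelium and blood precursors, had 1 count in the other cells and a mean of 31.4 CPM in the class, a log2 ratio of means of 10.27 without the added 1 (7.79 to 15.57). *Egfl7* (1.35 and 2.23), *Rasip1* (2.79 and 2.43) and *Nfatc1* (2.89 and 1.37) were also higher in both lanes. In all, 3 of 7 endothelial surface and junction genes taken passed, with a median of 0.06. From the list named for ETS and SOX factors, 2 of 6 genes taken passed, with a median of 0.91. *Nfatc1* belongs to neither of these families. *Nrp1*, a coreceptor for VEGF, was among the 2 surface genes below 0 in both lanes (−1.39 and −0.55). *Etv2*, which starts the endothelial and blood programme, was at 0.61 and 0.25, and *Flt1* at 0.40 and −0.45.

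**Figure D3:**
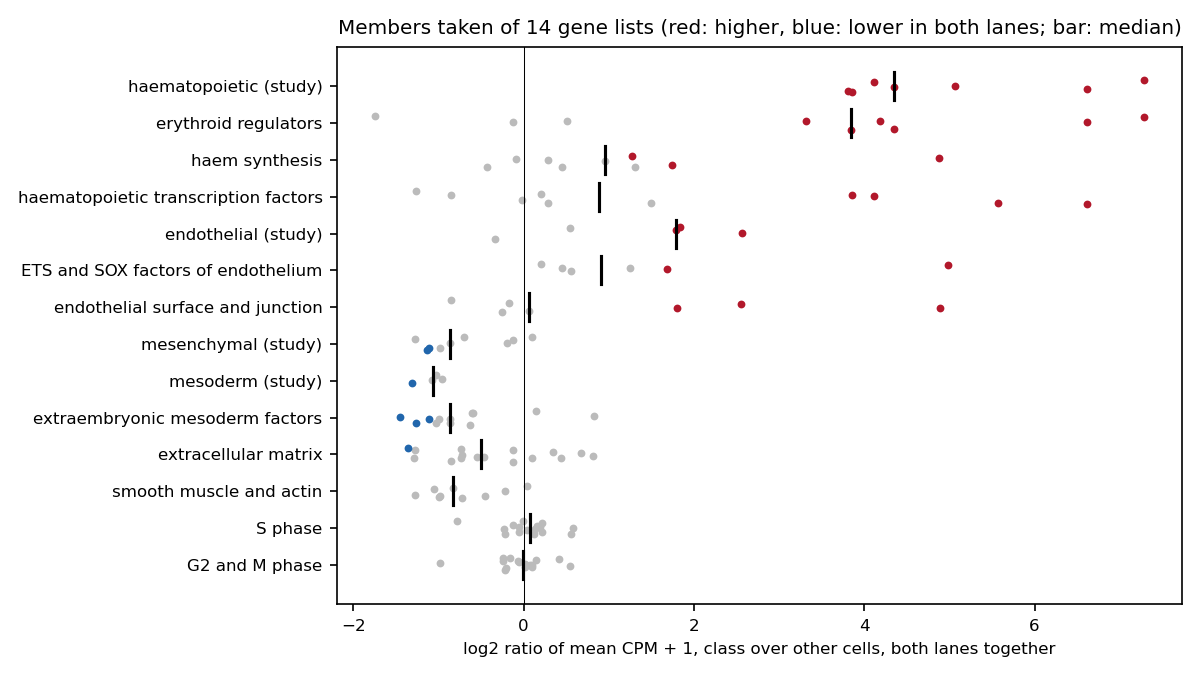
Log2 ratio of mean CPM + 1 over both lanes for the members taken of 14 gene lists, each point 1 gene (red, higher in both lanes; blue, lower in both lanes; grey, neither) and each bar the median of a list. The haematopoietic genes lie around 4.35, the mesenchymal genes around −0.86 and both cell cycle lists near 0.

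A few mesenchymal and mesodermal genes were lower in the class. Of the 9 mesenchymal genes of the study, *Msx1* and *Dlk1* were at least 2-fold lower in both lanes and none was higher, and the median was −0.86 (−0.81 on lane 7 and −0.63 on lane 8). *Msx1*, a homeobox factor of mesenchyme downstream of BMP signals, had a median of 9.04 CPM in the class and 51.5 CPM in the other cells, and ranged up to 392 and 266 CPM. *Dlk1*, a membrane protein related to Notch ligands, had medians of 1.78 and 11.3 CPM, and its call ended without the highest cells. *Acta2*, smooth muscle actin, reached 10 CPM in 42.9% of class cells and 65.3% of other cells, but its ratio was −1.50 on lane 7 and −0.38 on lane 8 and did not pass. *Tagln* (−2.11 and −0.56) did the same, and *Col1a2* (0.14 and 0.08) was alike in both. Of 4 mesoderm genes taken, *Pdgfra* (−1.12 and −1.40) was lower, and *Foxf1* (−0.93 and −1.10) and *Lef1* (−0.44 and −1.24) missed the call on lane 7. *Mixl1*, a gene of the primitive streak, was at 1.33 and −1.30.

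*Hand1*, a factor of extraembryonic mesoderm, had a median of 76.1 CPM in the class and 262 CPM in the other cells (−1.37 and −1.18). *Bmp4*, a ligand made by this tissue that promotes mesoderm and blood, had means of 69.4 and 192 CPM (−1.22 and −1.55). With *Msx1* they were the 3 of 12 extraembryonic mesoderm factors that were lower in both lanes, and 9 of the 12 were below 0 in both, as were 33.9% of all genes taken. The BMP pathway genes were below 0 in both lanes for 9 of 11 taken, including *Id1* (−0.39 and −0.97), *Id2* (−0.76 and −1.33) and *Id3* (−0.75 and −0.86), targets of the pathway, but only *Bmp4* passed. In the extracellular matrix list 1 of 16 passed, *Lama1* (−1.46 and −1.31), and *Fn1* was at 0.61 and 0.36. None of 9 smooth muscle and actin genes, of 7 Wnt pathway genes or of 10 genes for cadherins, intermediate filaments and their regulators passed. Of all genes taken, 2.18% were lower in both lanes. The medians of these lists were −0.83, −0.73 and −1.01, and 7 of 9, 4 of 7 and 6 of 10 members were below 0 in both lanes. *Krt18* had medians of 353 CPM in the class and 1084 CPM in the other cells (−1.47 and −0.91). *Jag1*, a Notch ligand, was lower (−3.33 and −1.10), as was *Fgfr3* (−2.10 and −1.21).

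The 15 genes with the largest negative ratios were of another kind, since in most of them a few cells carried the mean. *Zfp449*, a zinc finger gene, was at −2.36 and −4.21, with a mean of 186 CPM in the other cells, a median of 14.9 CPM and 6509 CPM in the highest cell. It kept its call without the highest cells, with a ratio over both lanes of −2.22 against −3.73. *Chic1* was less dependent on single cells, with medians of 0.384 CPM in the class and 55.6 CPM in the others (−2.32 and −2.08), as was the predicted gene *C530043K16Rik* with 0.545 and 31.3 CPM (−2.17 and −2.11). *Kctd1* (−2.07 and −2.36), *Gm37736* (−2.83 and −3.31) and *Gm37297* (−2.24 and −3.05) also kept their calls without the highest cells. The calls of *Zfp28*, *Ift88*, *Foxf2*, *Colec11*, *Mybl1*, *Gm26538*, *Slc35e3* and *4930522L14Rik* ended. The library kit does not mark strand, so reads of predicted genes cannot be told from those of a gene on the other strand.

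Cell cycle genes had small ratios. The median over 16 S phase genes was 0.08 (−0.78 to 0.58) and over 16 G2 and M phase genes −0.01 (−0.98 to 0.55). None of either list passed in either direction. Of all genes taken only 2.53% were higher and 2.18% lower, so a count of 0 among 16 genes is near that share. *Mki67*, which marks cycling cells, had a median of 244 CPM in the class and 218 CPM in the other cells, and *Mcm4* 516 and 505 CPM.

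*Gata1* and *Hbb-bh1* were highest in cells with all 6 rule genes, and the means in cells with 4 or 5 rested on few cells. *Gata1* averaged between 0.154 and 0.409 CPM in cells with 0 to 3 of the rule genes, 17.9 CPM in cells with 4, 65.0 CPM with 5 and 302 CPM with 6, with medians of 0.392, 0.681 and 201 CPM. Without the highest cell the mean in cells with 4 was 3.26 CPM. *Hbb-bh1* averaged 3.81, 167 and 1181 CPM in cells with 4, 5 and 6, with medians of 0.707 and 2.95 CPM in cells with 4 and 5, and without 1 cell at 2285 CPM the mean in cells with 5 was 3.60 CPM. *Runx1* averaged 4.79 CPM in cells with 3 of the rule genes, 50.3 CPM with 4 and 171 CPM with 5, and was not higher with 6. The endothelial genes without *Kdr* averaged 31.4 CPM in cells with 3 rule genes, 14.7 CPM with 4, 78.6 CPM with 5 and 48.4 CPM with 6. This mean did not step up at the edge of the class, but genes of high level weigh most in it. *Aplnr* was the highest of them in the other cells, at 130 CPM. *Tek* averaged 36.8 CPM with 3 (17.7 CPM without 1 cell at 496 CPM) and 11.3 CPM with 4, with medians of 0.328 and 0.398 CPM. The mesenchymal genes averaged 85.0, 82.5, 89.1 and 29.3 CPM in cells with 3, 4, 5 and 6 rule genes. *Hand1* averaged 271 CPM with 3, 227 CPM with 4 and 79.2 CPM with 6. In *Hand1* and in the mesenchymal genes, cells with 4 of the rule genes were closer to cells with 3 than to cells with 6.

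**Figure D4:**
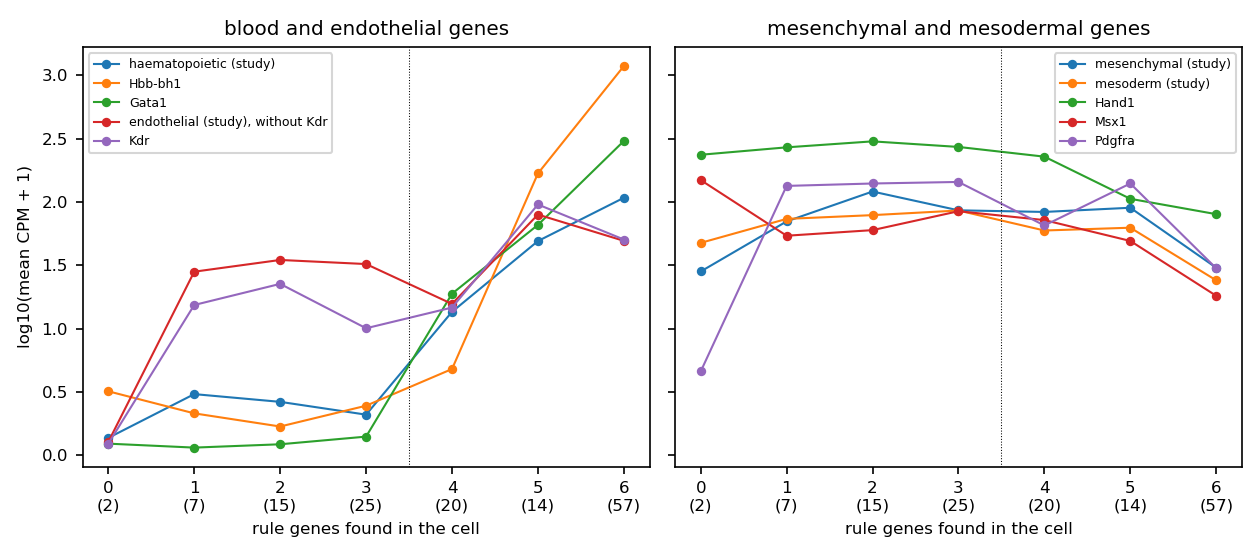
Mean level as log10(CPM + 1) of blood and endothelial genes (left) and of mesenchymal and mesodermal genes (right) in cells grouped by how many of the 6 rule genes were found, with the number of cells in brackets; the dotted line is the edge of the class. *Gata1* goes from 0.409 CPM at 3 genes to 302 CPM at 6, and the mesenchymal genes from 85.0 to 29.3 CPM.

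Blood and endothelial genes were carried together by some cells of the class and apart by others. With a cell taken as erythroid at 10 CPM or more in at least 2 of *Gata1*, *Klf1*, *Gfi1b*, *Hbb-bh1* and *Alas2*, 53 class cells (58.2%, 47.4 to 68.5%) and none of the other cells passed. At 10 CPM or more in at least 2 of *Tek*, *Pecam1*, *Cdh5* and *Ramp2*, 41 class cells (45.1%, 34.6 to 55.8%) and 4 other cells (8.16%, 2.27 to 19.6%) passed as endothelial. Both were passed by 28 class cells (30.8%), the erythroid alone by 25 (27.5%), the endothelial alone by 13 (14.3%) and neither by 25 (27.5%). On lane 7 the cells with both were 22.9% of 35 and on lane 8 35.7% of 56, with intervals that overlap (10.4 to 40.1% and 23.4 to 49.6%). These counts include the 10 class cells with transcripts of both sexes, all on lane 8. Doublets were not called, so the part of doublets in the cells with both was not tested. At least 3 of the 9 mesenchymal genes reached 10 CPM in 57 class cells (62.6%) and 45 other cells (91.8%). Among cells with erythroid genes alone this was 9 of 25 (36.0%), and among those with endothelial genes alone 11 of 13 (84.6%).

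Across the 91 class cells, the mean log2(CPM + 1) of the erythroid genes was lower where that of the mesenchymal genes was higher (Spearman's rho −0.65, and −0.69 and −0.60 within lanes 7 and 8). Erythroid and endothelial means were hardly related (0.16, and 0.11 and 0.20), as were endothelial and mesenchymal means (−0.20, and −0.22 and −0.18). These are descriptions over cells that share their lanes and the authors' scaling.

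**Figure D5:**
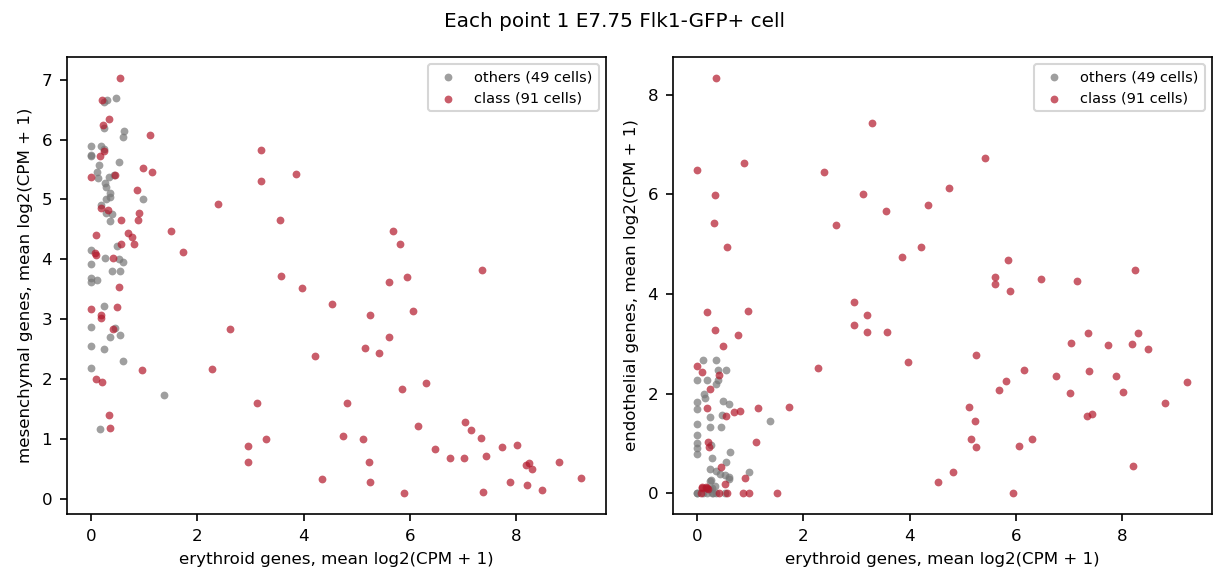
Mean log2(CPM + 1) of 9 mesenchymal genes (left) and 4 endothelial genes (right) against that of 5 erythroid genes, each point 1 E7.75 cell (red, 91 haemato-endothelial cells; grey, 49 other cells). The red points fall from upper left to lower right on the left (rho −0.65) and show little trend on the right (0.16), and some lie among the grey points.

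The same rule was applied to the E7.25 *Flk1*-GFP+ cells, which are different cells on other lanes (6 and 7 of another flow cell) and of the same genotype and dissociation. It placed 86 of them in the class and 61 outside. Of 8242 genes taken there, 1.60% were higher in both lanes and 0.886% (73 genes) lower. The 2 stages shared 45 higher genes, which is 21.1% of the E7.75 genes and 34.1% of the E7.25 genes, and 2 lower genes (1.09% and 2.74%), *C530043K16Rik* and *Gm43715*. Of the higher genes, 67.6% were also taken at E7.25, and of these 97 (67.4%) were above 0 in both of its lanes and 11 (7.64%) below, and their median ratio was 0.76 there against 1.76 at E7.75. Of the lower genes, 73.8% were taken, and of these 64 (47.4%) were below 0 in both and 20 (14.8%) above, with a median of −0.28 against −1.45. Of all genes taken at E7.25, 29.8% were above 0 in both lanes and 24.7% below, and the median was 0.01.

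Several blood genes were far apart at E7.75 and near the minimum level or below it in both groups at E7.25. *Klf1* had a mean of 0.518 CPM in the E7.25 class (0.22 and 0.96), *Tspan32* 0.614 CPM (0.49 and 0.83) and *Adgrg1* 0.226 CPM (0.07 and 0.03), against 20.4, 48.3 and 34.2 CPM in the E7.75 class. *Hbb-bh1* had 25.7 CPM in the E7.25 class and 0.00934 CPM in its other cells (5.42 and 2.03). *Gata1* (5.30 and 3.61), *Gfi1b* (4.22 and 4.74), *Runx1* (2.64 and 3.53) and *Tek* (6.63 and 3.40) were higher at both stages. *Kdr* was at 0.32 and 0.50 at E7.25, with 88.5 CPM in the E7.25 cells outside the class. The lower mesodermal genes were closer to 0, with *Hand1* at −0.39 and −0.35, *Bmp4* at 0.25 and −0.17 and *Msx1* at −0.03 and −0.50. The difference between stages was not tested.

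Set against the sorted E8.5 populations (271 cells), the 213 higher genes were spread over blood and endothelium. Primitive erythroid cells (EryP) had the highest mean for 72 of them (33.8%), megakaryocytes (Mk) for 54 (25.4%), endothelial cells (Endo) for 60 (28.2%) and haematopoietic progenitors (HPC) for 27 (12.7%), beside 35.0%, 19.2%, 33.1% and 12.6% of all genes taken. These shares were close to those of all genes. The 183 lower genes were highest in Endo for 63.4%, and in EryP for 23 (12.6%). The 4 populations include no mesenchymal cells. *Hand1*, *Bmp4*, *Dlk1* and *Pdgfra* were highest in Endo among the 4, whereas *Msx1* was highest in Mk. *Hbb-bh1* averaged 56134 CPM in EryP, 22619 CPM in Mk, 3191 CPM in HPC and 2.20 CPM in Endo, so its 766 CPM in the E7.75 class was below the 3 blood populations. *Esam* averaged 393 CPM in Endo, against 28.6 CPM in the class.

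The summed markers of other tissues had a median of 0 in both groups, except those of the heart. The summed level of 14 visceral endoderm markers, as CPM of each cell's own total, ranged from 0 to 39.2 in class cells and from 0 to 30.3 in other cells with medians of 0, and 7 and 8 of the 14 had no count. *Ttr*, *Afp* and *Foxa2* had means of 0, 0.168 and 0 in the class and 0.0142, 0 and 0 in the others. The 4 macrophage markers ranged from 0 to 11.2 and stayed at 0 in the other cells, with no count of *C1qb* and *C1qc* in either group. The 4 megakaryocyte markers ranged from 0 to 200, mostly *Vwf* in 4 class cells, and from 0 to 0.232 in the other cells. The 10 trophoblast and ectoderm markers ranged from 0 to 258 and from 0 to 56.2, with no count of *Elf5*. The 10 cardiac markers, some of which extraembryonic mesoderm also expresses, had medians of 36.1 and 71.5 and passed 10 in 63 class cells and 36 other cells, with *Tnnt2* and *Myl7* present and *Myh6* and *Myh7* at 0. The part of such cells in the differences above was not tested.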

How the data were processed

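Single yolk sac cells sorted for GFP from the *Flk1* locus at E7.75 were compared with each other. The deposited counts are reads per gene, which featureCounts assigned to Ensembl genes after paired-end reads of Nextera XT libraries had been aligned to GRCm38 by Rsubread. Cells and genes were filtered with scater, and the authors then divided the kept counts by scran size factors to give the deposited signal values in CPM. Read counts without molecular identifiers are not counts of molecules, and intervals cover counting error only.

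No alignment or count was repeated. Cells were divided on the filtered counts, and means were taken from the authors' CPM. A gene was called at a log2 ratio of mean CPM + 1 of 1 or more, or −1 or less, in both lanes. Named genes are the 15 in each direction with the largest smaller-of-2-lanes ratio, and members of fixed lists; some of these genes are not reported here. Members and lists were chosen with earlier results of these data known. Shares carry exact (Clopper-Pearson) 95% intervals. The unfiltered count table was used only for markers of other tissues; 15349 of 15356 genes compared had equal counts in both tables. Coordinates are from GENCODE on GRCm38, a later annotation than the authors', and promoters from RefSeq. Doublets were not called; each chip site was imaged by the authors, and cells with transcripts of both sexes were left out as an alternative. The ratio code was tested on simulated data. Alternatives were another scaling, pseudocount, filter, threshold, measure and division of the cells, thinning to 840000 counts, and each lane alone. Computations used Python 3.11.15 with scipy 1.17.1, pandas 2.3.3 and numpy 2.4.6, and plots matplotlib 3.10.9.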

Additional observations from a re-analysis of the deposited data

Results flagged for a closer look

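For 3 genes named above, the log2 ratio had one sign at E7.75 and the opposite sign in both lanes at E7.25. The difference between the stages was not tested. *Lama1*, a laminin chain of basement membranes, was lower in the E7.75 class (−1.46 and −1.31) and higher in the E7.25 class (2.64 and 1.22). It was the only gene called lower at E7.75 and higher at E7.25. *Chic1* was at −2.32 and −2.08 at E7.75 and at 1.84 and 0.03 at E7.25, so on lane 7 of E7.25 it hardly differed. The predicted gene *Gm26538* was at −2.02 and −2.37 at E7.75 and at 0.63 and 1.93 at E7.25, and its E7.75 call ended without the highest cells.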

How the results depend on the processing

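The higher and lower genes made up 1.33% and 0.750% of the genes taken with a pseudocount of 10, 4.36% and 2.67% with a mean of 1 CPM as the minimum (580 and 355 genes), 0.662% and 0.945% with 100 CPM (14 and 20), 5.02% and 6.72% at a 1.5-fold threshold (422 and 565), 0.916% and 0.155% at 4-fold (77 and 13), 4.37% and 6.14% with lanes pooled (367 and 516), 10.7% and 9.49% on lane 7 alone (883 and 780) and 4.79% and 8.00% on lane 8 alone (401 and 670). Higher genes made up 3.81% with 3 rule genes required, 4.60% without the cells holding 3 or 4, and 3.81% without the highest cells. Lower genes made up 1.39% with plain CPM, 3.32% after thinning and 5.70% with 10 counts per rule gene. Under all other alternatives both counts stayed within 1.5 times. The class held 54.1% of cells after thinning, 82.9% with 3 genes required, 50.7% with 5 and 44.3% with 10 counts per gene. The haematopoietic, mesenchymal and mesoderm medians kept their sign in every alternative. The haematopoietic median was 2.14 with a pseudocount of 10, 7.28 at 100 CPM, 4.74 thinned, 4.69, 4.07 and 4.20 with 3 genes, 5 genes and 10 counts, 5.32 without the edge, 2.53 as a difference of mean log2(CPM + 1), 4.46 without cells of both sexes and 4.78 and 4.66 on lanes 7 and 8. The mesenchymal median was −0.66, −1.13, −1.41, −0.53, −1.20, −1.78, −1.32 and −1.72 under the first 8 of these, and −0.63 on lane 8. The mesoderm median was −1.71 thinned, −0.66, −1.30 and −2.09 with 3 genes, 5 genes and 10 counts, −1.32 without the edge and −2.25 as a difference. The endothelial median turned to −0.34 at 100 CPM, where only *Aplnr* was left. All 15 named higher genes kept their call in every alternative, except that 11 were under a minimum of 100 CPM and 1 was not called on lane 7 alone. Of the 15 named lower genes none kept it at 100 CPM, 12 did with plain CPM or a pseudocount of 10, 9 after thinning or on lane 7 alone, 8 with 3 rule genes required, 10 without the cells holding 3 or 4, 7 without the highest cells, 5 as a difference of mean log2(CPM + 1) and 13 or more under all others, and *4930522L14Rik* turned to 0.50 with 3 genes required. No paired analysis was possible because the result comes from no test.

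All differences rest on 140 cells with no embryo or sort named, so the spread between embryos is unknown. Depth limits whether a low transcript is found in a cell, and 18 cells held under 840000 counts.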

Other observations

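Further genes among those called were picked out after their values had been seen, so they carry no count or test. *Car2*, a carbonic anhydrase of red cells, had a median of 409 CPM in the haemato-endothelial cells and 22.0 CPM in the other cells, and reached 10 CPM in 80.2% and 55.1% of them (log2 ratio 4.31 and 3.71). *Gypc* and *Blvrb*, which red cells also express, were at 5.44 and 3.37 and at 3.24 and 2.16. *F2r*, the thrombin receptor, was found at 10 CPM or more in 94.5% of class cells and 65.3% of other cells (2.51 and 2.34). *F10*, a coagulation factor, was at 5.27 and 3.95, and *Tfpi*, an inhibitor of coagulation, at 1.75 and 2.05.

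Some genes linked to vessels were lower in the class, in contrast to *Tek* and *Esam*. *Epas1*, a factor of the hypoxia response, had medians of 0.445 CPM in the class and 25.2 CPM in the others (−2.63 and −1.70). *Apela*, a ligand of the apelin receptor, had medians of 0.778 and 54.8 CPM (−2.05 and −1.34). *Efna1* (−1.69 and −1.25) and *Ephb4* (−1.21 and −1.89) were lower as well. Of genes known to be imprinted, *Peg3* had medians of 623 and 1463 CPM (−1.26 and −1.0), *Peg10* means of 75.6 and 173 CPM (−1.40 and −1.07) and *Phlda2* 60.8 and 357 CPM (−1.25 and −1.25); each kept its call without the highest cells.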
